A study of Mus musculus with 6 samples.

Results

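The sarcomeric myosin heavy chains examined here were the 8 genes Myh1, Myh2, Myh3, Myh4, Myh6, Myh7, Myh8 and Myh13, out of 55536 genes in the count table. They were chosen by symbol as a family, and the family was picked because Myh3 was higher in TKO than in Ctrl in these same libraries. Bulk RNA-seq was performed on basal cells of dorsal skin, sorted as Epcam+ α6+, from mouse embryos at E16.5. Ctrl embryos (n = 3) were Suv39h1 f/f, Suv39h2-/-, Setdb1 f/f and lacked K14CreERT2, and TKO embryos (n = 3) had the same alleles with K14CreERT2. This recombinase is driven by a keratin promoter of basal keratinocytes and acts only after tamoxifen, which both groups received, so both groups lacked Suv39h2 and only TKO could recombine the 2 floxed methyltransferase genes. The litters used for bulk RNA-seq were listed by the study as mosaic, so some sorted cells of a TKO library may have kept the floxed genes. Ctrl 1 and TKO 2 were female and the other 4 libraries were male. Total counts were 102159175, 136515436 and 104422632 in Ctrl 1, 2 and 3, and 116308383, 108957256 and 118413082 in TKO 1, 2 and 3. Setdb1 was at 126, 118 and 121 CPM (counts relative to the library size after TMM normalization) in Ctrl 1, 2 and 3 and 95.3, 62.3 and 74.9 CPM in TKO 1, 2 and 3, lower in every TKO library. Suv39h1 was at 88.7, 78.5 and 84.0 CPM against 75.6, 68.9 and 89.4 CPM, which overlap, and Suv39h2 at 16.2 ± 0.784 and 17.5 ± 1.46 CPM (SD, n = 3 each). These counts cover whole genes, so a transcript that lacks only the deleted exons is still counted and an unchanged level checks nothing. Each library comes from material labelled as a separate sample. Whether a library was 1 embryo or several was not established here, so the spread given below is that between libraries.

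Myosin heavy chains of class II are the motor proteins of contraction. The head binds actin and splits ATP, and the long coiled tail assembles with others into the thick filament of the sarcomere, the contractile unit of striated muscle. Developing skeletal muscle of mammals makes the embryonic chain Myh3 and the neonatal chain Myh8, which the adult fast chains Myh1, Myh2 and Myh4 largely replace later. Myh7 is the slow chain of skeletal muscle. Myh13 is a fast chain of extraocular muscle, and Myh6 and Myh7 are the heavy chains of the heart. Keratinocytes do not build sarcomeres, and the class II heavy chains they are known for are the non-muscle ones such as Myh9. Myh3 and Myh8 are treated here as developmental isoforms, Myh1, Myh2, Myh4 and Myh13 as fast isoforms, and Myh6 and Myh7 as slow and cardiac isoforms.

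The family lies in 2 gene clusters (coordinates in GRCm39). Myh3, Myh2, Myh1, Myh4, Myh8 and Myh13 follow each other on the plus strand of chromosome 11, from chr11:66969126-66993117 for Myh3 to chr11:67212484-67262413 for Myh13, over 293 kb. Between them lie Myh2 at chr11:67061838-67088989, Myh1 at chr11:67089132-67116631, Myh4 at chr11:67128336-67151274 and Myh8 at chr11:67167746-67199462. Myh6 (chr14:55179367-55205887) and Myh7 (chr14:55208141-55232084) adjoin each other on the minus strand of chromosome 14. Of the 8 genes, only Myh3 and Myh13 overlap no annotated gene on the other strand. Whether reads were counted by strand is not given in the sources used here, so reads of the other 6 and of their antisense partners cannot be told apart. One such partner, the lncRNA Myhas, which overlaps Myh1 and Myh4, had 6, 24 and 4 counts in Ctrl and 13, 0 and 19 in TKO, and 9430073C21Rik, which overlaps Myh1 and Myh2, was at 0 in all 6 libraries.

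The coding sequences of the 8 genes are alike, so the identity of a read was checked on the reference transcripts. Coding sequences of 2 members were identical at between 76.2% and 91.2% of aligned bases (median 79.7% over 28 pairs), highest for Myh6 with Myh7 and 81.6% for Myh3 with Myh8. The most conserved stretch of 60 coding bases found by alignment is given because it marks the region where a short read would be hardest to assign. Capitals mark the bases that differ from Myh3 in the sequences of GENCODE transcripts, read 5′ to 3′.
Myh3: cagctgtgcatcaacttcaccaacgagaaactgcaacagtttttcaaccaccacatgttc
Myh8: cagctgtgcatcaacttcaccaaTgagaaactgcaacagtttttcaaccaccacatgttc
Myh1: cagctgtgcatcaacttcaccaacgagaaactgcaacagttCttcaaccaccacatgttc
Myh7: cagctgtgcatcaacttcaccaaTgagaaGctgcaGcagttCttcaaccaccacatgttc
Myh2, Myh4 and Myh13 carry the same 60 bases as Myh8, and Myh6 the same as Myh7. Over whole transcripts such stretches were few for the gene that matters most. Of 6187 windows of 100 bases in the Myh3 transcript, 68 (1.1%) occurred exactly in any of the 13 other class II heavy chain genes. The share was 6.52% for Myh8, 3.42% for Myh13, 3.75% for Myh4, 7.38% for Myh1 and 8.21% for Myh2. It was highest for Myh6 and Myh7 (11.1% and 11.2%), whose reads are therefore the least certain of the family.

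The 250 bases before the Myh3 start are shown because this is the promoter of the member with the highest level and the largest difference in counts. They come from RefSeq (GRCm38.p6) and match chr11:66968876-66969125 of GRCm39 exactly, on the plus strand, and hold no annotated exon of the gene. Motifs were searched on both strands as CANNTG (the E-box bound by myogenic factors), TATAAA (the TATA box) and CATTCC (the MCAT element of TEAD factors), with the consensus motifs of MEF2 and of the SRF CArG box. Capitals mark the matches, an E-box that begins 191 bases before the start and a TATAAA that begins 29 bases before it.
Myh3: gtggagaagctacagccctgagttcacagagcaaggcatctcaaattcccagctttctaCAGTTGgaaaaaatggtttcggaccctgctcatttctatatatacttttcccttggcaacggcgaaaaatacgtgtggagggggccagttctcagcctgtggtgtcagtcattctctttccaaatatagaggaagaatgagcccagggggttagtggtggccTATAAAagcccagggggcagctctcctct
Both kinds of match are frequent, since 66.2% of 32851 RefSeq promoters held an E-box and 12.4% a TATAAA in the same window. A MEF2 consensus was found in 2.92% of promoters, and among the 8 genes in Myh1, Myh4 and Myh8. The matched 10 bases, in capitals here with 10 bases on each side, were the same in all 3 genes.
Myh8: ccttgtcaaaTTATTTATAGgagattggtt
Myh1: acaactcaaaTTATTTATAGgagattgatt
Myh4: ccctgtcaaaTTATTTATAGatgacaagaa
The match begins 99 bases before the RefSeq start of Myh8 (chr11:67167841-67167870 for the bases shown), 211 before that of Myh1 (chr11:67090707-67090736) and 182 before that of Myh4 (chr11:67128446-67128475), all on the plus strand. In each, the same bases also hold a TATAAA match on the minus strand. A match says only that the letters are present. Most of the 250 bases before the RefSeq starts of these 3 genes lie in exons of other annotated transcripts, so no longer stretch of them is shown.

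Myh3 was by far the most abundant sarcomeric heavy chain in both groups and was 6.09-fold higher in TKO. Its counts were 65, 98 and 54 in Ctrl 1, 2 and 3 and 455, 382 and 531 in TKO 1, 2 and 3. In CPM these were 0.656, 0.758 and 0.501 in Ctrl and 3.87, 3.46 and 4.37 in TKO. All 3 TKO libraries lay far above all 3 Ctrl libraries, and within each group the values were close together. Mean levels of Myh3 were 0.639 ± 0.13 CPM (Ctrl, SD, n = 3) and 3.90 ± 0.454 CPM (TKO, SD, n = 3), and the fitted log2 fold change was 2.61 ± 0.336 (SE). The SE here and below was computed from the log2 fold change and its edgeR p-value, so it holds no information beyond that test. The difference in Myh3 chose the family, so it is given as a description and nothing is read from its test. A count of 3, taken as the floor of detection, equals 0.0232 to 0.0303 CPM depending on the library, and Myh3 was well above that in every library.

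Myh8, the neonatal chain, was the other developmental isoform and stood second in TKO. It had 8, 25 and 26 counts in Ctrl 1, 2 and 3 and 138, 95 and 89 counts in TKO 1, 2 and 3, which is 0.0808, 0.193 and 0.241 CPM against 1.17, 0.860 and 0.732 CPM. The groups did not overlap, and the lowest TKO value (0.732 CPM) was well above the highest Ctrl value (0.241 CPM). Ctrl averaged 0.172 ± 0.0824 CPM and TKO 0.922 ± 0.227 CPM (SD, n = 3 each), with a log2 fold change of 2.41 ± 0.547 (SE). In TKO 1, the library with the most Myh8, Myh3 was intermediate, and in TKO 3, the library with the most Myh3, Myh8 was lowest, so the order of the 3 TKO libraries differed between the 2 genes.

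**Figure D1:**
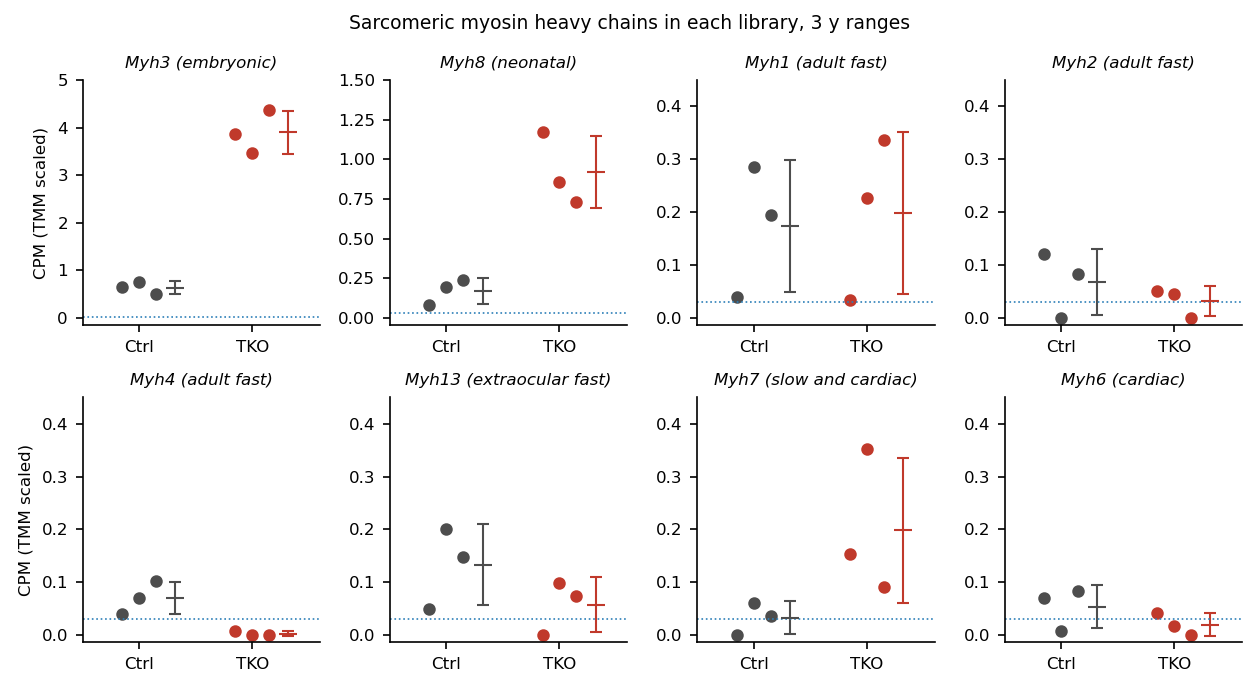
Level of each of the 8 genes in CPM (TMM-scaled, linear axes with 3 different ranges) in the 3 Ctrl (grey) and 3 TKO (red) libraries, left to right replicates 1 to 3, with group mean and SD beside the points and a dotted line at 0.0303 CPM, the highest 3-count floor. Myh3 lies between 3.46 and 4.37 CPM in TKO against 0.501 to 0.758 CPM in Ctrl, while all other genes but Myh8 stay below 0.4 CPM in every library.

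The fast isoforms were low, below 0.4 CPM in every library, and none was higher in all 3 TKO libraries than in all 3 Ctrl libraries. Myh1 had 4, 37 and 21 counts in Ctrl and 4, 25 and 41 in TKO, with fully overlapping groups and a log2 fold change of 0.19 ± 0.993 (SE). Its sign depended on single libraries, being -0.28 without Ctrl 1 and -0.43 without TKO 3. Myh13 had 5, 26 and 16 counts in Ctrl and 0, 11 and 9 in TKO, a log2 fold change of -1.20 ± 1.22 (SE) with overlapping groups. Myh2 had 12, 0 and 9 counts against 6, 5 and 0, and it did not pass the filter on low counts. Myh4, the fastest of the limb chains, was the only member whose libraries were all lower in TKO. It had 4, 9 and 11 counts in Ctrl against 1, 0 and 0 in TKO. With 25 counts over 6 libraries, it did not pass the filter on low counts and was not tested. The summed level of the 4 fast genes was 0.252, 0.557 and 0.529 CPM in Ctrl and 0.0935, 0.371 and 0.411 CPM in TKO, which overlap, whereas the developmental genes did not overlap. The standard errors of Myh1 and Myh13 were as large as or larger than their log2 fold changes.

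Both slow and cardiac isoforms had few counts. Myh7 had 0, 8 and 4 counts in Ctrl and 18, 39 and 11 in TKO, or 0, 0.0619 and 0.0371 CPM against 0.153, 0.353 and 0.0904 CPM. The groups were apart by a small margin (8 against 11 counts), and the log2 fold change of 2.52 carried an SE of 1.18, with no call by edgeR or DESeq2. Myh7 and Myh8 passed the filter on low counts only through their TKO libraries, so their place among the tested genes depended on their TKO values. Myh6, which shares more sequence with Myh7 than any other pair of the family, had 7, 1 and 9 counts in Ctrl and 5, 2 and 0 in TKO, and was not tested.

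In all, 5 of the 8 genes passed the filter, 3 of these 5 (Myh3, Myh8 and Myh7) had all TKO values above all Ctrl values, and none had the opposite. Over all 20622 tested genes, 6.35% were higher in TKO without overlap and 5.11% lower. At an adjusted p below 0.05 with a log2 fold change above 1, the edgeR quasi-likelihood fit called 1 member higher (Myh3), where it called 0.131% of all tested genes higher, and DESeq2 called Myh3 and Myh8, where it called 0.936%. The edgeR call of Myh3 was lost with sex as a covariate (adjusted p = 0.0533) and in 5 of the 6 fits that left out 1 library, all but that without TKO 3 (adjusted p 0.0595 to 0.122). Since the same contrast chose the family, nothing is read from these counts. Tested members had a median log2 fold change of 2.41, against 0.01 over all tested genes.

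The share of the developmental isoforms in sarcomeric heavy chain RNA is mostly that of Myh3, whose difference chose the family, so it restates that choice and is given as a description. To compare genes, CPM was divided by exon length in kb, counting every annotated exon base of a gene once. This length is 12161 bases for Myh8, whose transcript with the longest coding sequence has 6235, 9988 against 6210 for Myh7 and 9975 against 6292 for Myh6, so the levels per kb of these 3 are low estimates. On this scale the mean level of Myh3 was 0.0973 in Ctrl and 0.594 in TKO, that of Myh8 0.0141 and 0.0758, and every other gene had a mean of 0.0224 or less in both groups. In Ctrl the order below Myh3 was Myh13 (0.0216), Myh1 (0.0195), Myh8 (0.0141), Myh4 (0.0107), Myh2 (0.00792), Myh6 (0.00541) and Myh7 (0.00330), and neighbours in this order differed by less than the larger of their SDs. In TKO, Myh3 and then Myh8 stood clear of the rest, followed by Myh1 (0.0224), Myh7 (0.0199), Myh13 (0.00936), Myh2 (0.00372), Myh6 (0.00202) and Myh4 (0.000427), where the same held from Myh1 on. Per kb of that transcript instead, Myh8 (0.0276) stood second in Ctrl, before Myh1 and Myh13 (0.0218 each), and Myh7 (0.0320) stood before Myh1 (0.0249) in TKO, so the order below Myh3 depends on the length used. Myh3 and Myh8 together made up 72.8%, 61.5% and 53.7% of the summed level of the 8 genes in Ctrl 1, 2 and 3 and 95.7%, 87.7% and 92.5% in TKO 1, 2 and 3. The groups did not overlap, and the means were 62.7% ± 9.60 and 92.0% ± 4.03 (SD, n = 3 each), a difference of 29.3 percentage points.

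The same difference was present in the raw counts, without scaling by length. The developmental share of counts was 69.5% (95% Clopper-Pearson interval 59.8 to 78.1), 60.3% (53.2 to 67.1) and 53.3% (45 to 61.5) in Ctrl 1, 2 and 3. In TKO 1, 2 and 3 it was 94.6% (92.5 to 96.2), 85.3% (82.1 to 88.2) and 91.0% (88.6 to 93.1). These intervals cover counting error only, and their separation follows from the choice of Myh3. With Myh3 left out of the family, Myh8 made up 20%, 23.6% and 27.1% of the remaining counts in Ctrl and 80.2%, 53.7% and 59.3% in TKO. The fast genes made up 32.4% ± 8.94 of the level per kb in Ctrl and 4.92% ± 2.94 in TKO (SD, n = 3 each), while Myh6 and Myh7 together were at 4.94% ± 1.74 and 3.11% ± 2.18. A share is lower where another part of the sum is higher, and the summed fast level itself overlapped between groups.

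**Figure D2:**
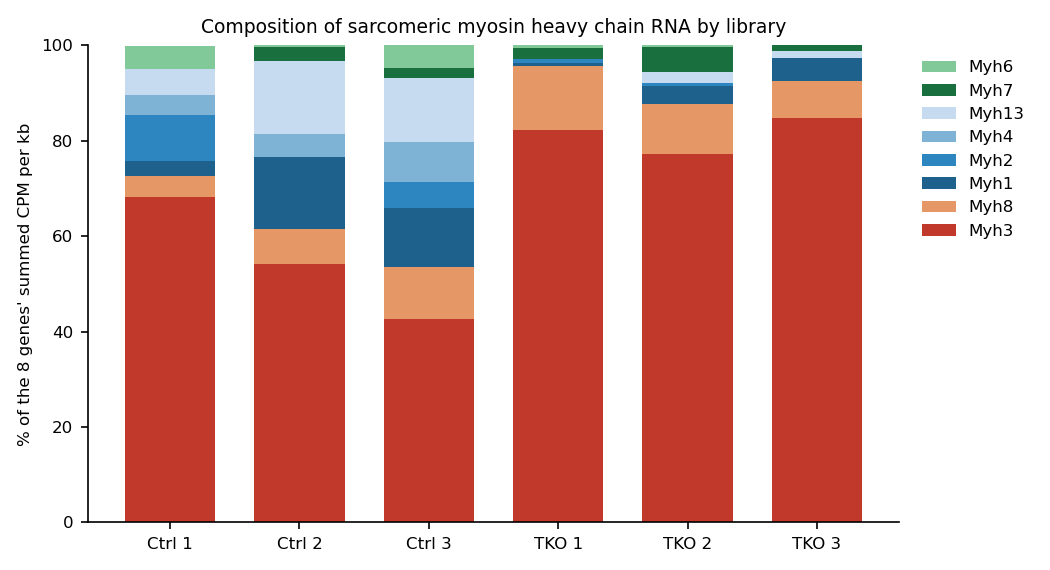
Stacked bars of the share of each gene (percent of the summed CPM per kb of the 8 genes) in each library. Myh3 (red) and Myh8 (orange) take between 87.7% and 95.7% in the TKO libraries and between 53.7% and 72.8% in the Ctrl libraries, with the fast genes in blue and Myh7 and Myh6 in green.

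The class II heavy chains outside the family were measured for comparison. Myh9, the main non-muscle heavy chain, was at 789, 704 and 744 CPM in Ctrl and 943, 1110 and 774 CPM in TKO, with a log2 fold change of 0.34 ± 0.165 (SE). The non-muscle chain Myh10 had a log2 fold change of 0.50, the smooth muscle chain Myh11 0.28 and the non-muscle chain Myh14 -0.14. Myh7b, a relative of the slow chain, was at 0.454, 0.139 and 0.167 CPM in Ctrl and 0.612, 0.915 and 0.280 CPM in TKO (log2 fold change 1.25 ± 0.665, SE). None of these 5 tested genes was called and all had overlapping groups, where 0.131% of all tested genes were called and 11.5% had groups apart, so that few would be in a list of this size. At an unadjusted p below 0.05, 1 of the 5 was higher (Myh10), against 4.06% of all tested genes. Myh15 was not tested. Whether the difference of the family members is larger than that of these 5 was not tested, since the contrast chose the former.

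The partners of myosin in the sarcomere were then examined in 5 lists of 86 genes, of which 67 were tested (light chains and thick filament, thin filament, Z-disc and titin, excitation-contraction coupling with muscle metabolism, and chaperones of myosin). Higher values in TKO were common but uneven. Of the 67 genes, 52 had a positive log2 fold change (51.9% of all tested genes did), the median was 0.53 against 0.01 over all tested genes, and 14 were higher without overlap and 1 lower (6.35% and 5.11% of all tested genes). Of these 14, Cacna1s, Cacng1, Casq2, Myoz2 and Trim55 passed the filter on low counts only through their TKO libraries, as did 238 of the 1310 genes of this kind in the whole table, so the count is a description. None was called by edgeR in either direction (0.131% of all tested genes were called higher and 0.0% lower). At an unadjusted p below 0.05, 14 were higher and 1 lower (4.06% and 2.02% of all tested genes), and DESeq2 called 5 higher (Acta1, Actc1, Tpm1, Ttn and Actn2), where it called 0.936% of all tested genes higher. These lists were put together with results of these data known.

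In the Z-disc and titin list, Ttn and Actn2 had the largest log2 fold changes. Ttn, the giant spring that spans from Z-disc to M-band, was at 1.33, 7.41 and 3.90 CPM in Ctrl and 26.1, 22.1 and 20.9 CPM in TKO, a log2 fold change of 2.45 ± 0.493 (SE, edgeR adjusted p = 0.181). Actn2, the Z-disc crosslinker of actin, was at 0.636, 0.727 and 0.993 CPM in Ctrl and 2.95, 4.96 and 2.75 CPM in TKO (log2 fold change 2.18 ± 0.380, SE, edgeR adjusted p = 0.0879). Both were apart between groups in every library. The Ctrl libraries spread more in Ttn (1.33 to 7.41 CPM) than in Myh3 (0.501 to 0.758 CPM). Myoz2, a Z-disc protein that binds calcineurin, was also higher in every TKO library but close to the floor (0.0387 to 0.102 CPM against 0.127 to 0.280 CPM), and Pdlim5, the most abundant gene of the list per kb, was not (log2 fold change -0.12).

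In the thin filament, 4 of 17 tested genes were higher in TKO without overlap (6.35% of all tested genes were). Neb, the giant ruler protein of the thin filament, was at 0.737, 1.34 and 1.63 CPM in Ctrl and 2.69, 2.57 and 3.32 CPM in TKO (log2 fold change 1.21 ± 0.377, SE). Tnni1, the slow skeletal inhibitory troponin, was at 0.798, 0.441 and 0.427 CPM against 1.04, 1.10 and 2.20 CPM (log2 fold change 1.38 ± 0.474, SE). The tropomyosins Tpm1 (39.4, 56.5 and 48.4 against 88.2, 178 and 72.1 CPM) and Tpm2 (log2 fold change 0.48) were the other pair, and both are also made outside muscle. Tpm3, the most abundant gene of the list per kb, had a log2 fold change of 0.16. The skeletal and cardiac α-actins had overlapping groups and are named after their values were seen. Acta1 was at 0.353, 0.573 and 0.965 CPM in Ctrl and 0.960, 3.28 and 3.97 CPM in TKO, and Actc1 at 0.788, 2.26 and 1.88 CPM against 1.90, 6.14 and 9.0 CPM. In both, TKO 1 fell within the Ctrl range.

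Of 12 tested light chain and other thick filament genes, 1 was higher without overlap (6.35% of all tested genes were). This was Myl4, the embryonic and atrial essential light chain, at 0.242, 0.325 and 0.213 CPM in Ctrl and 0.535, 0.715 and 0.765 CPM in TKO (log2 fold change 1.36 ± 0.481, SE). The median of the list was 0.33. Mylpf, the fast regulatory light chain that pairs with Myh3 in muscle and is named after its values were seen, was at 1.48, 1.53 and 1.0 CPM in Ctrl and 1.14, 1.54 and 3.12 CPM in TKO. Mybpc1, the most abundant of the list per kb, had overlapping groups (log2 fold change 0.55).

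Among genes of excitation-contraction coupling and muscle metabolism, 5 of 16 were higher in TKO without overlap and 1 was lower (6.35% and 5.11% of all tested genes were), but 3 of the 5 (Cacna1s, Casq2 and Cacng1) passed the filter only through TKO. Cacna1s, the voltage sensor of the muscle calcium channel, was at 0.131, 0 and 0.00928 CPM in Ctrl and 0.297, 0.335 and 0.699 CPM in TKO. Mb, the oxygen store of muscle, was at 0.616, 0.124 and 0.158 CPM against 1.0, 2.11 and 0.789 CPM, and Casq2 and Atp2a1, which store and pump calcium in the sarcoplasmic reticulum, had log2 fold changes of 2.18 ± 0.895 and 1.42 ± 0.480 (SE). The fifth, Cacng1, was small (log2 fold change 0.68, chosen after its values were seen). Eno3, the muscle enolase, was the single gene lower without overlap (5.42, 3.71 and 3.40 against 2.52, 2.50 and 2.74 CPM). Atp2a2, the calcium pump shared with other tissues and the most abundant gene per kb, had a log2 fold change of 0.08.

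Folding and turnover of myosin depend on dedicated factors, and 9 of 10 of these were tested. Unc45b and Smyd1, the chaperone and the methyltransferase needed for thick filament assembly, had log2 fold changes of 1.15 ± 0.628 and 0.97 ± 0.863 (SE) with overlapping groups. Trim55, a titin-associated ligase, was at 0.0464 to 0.0697 CPM in Ctrl and 0.127 to 0.460 CPM in TKO, and it passed the filter on low counts only through TKO. The muscle atrophy ligases Trim63 (log2 fold change -1.45 ± 1.13, SE) and Fbxo32 (-0.12) were not higher. Trim63 depended on single libraries, from -2.3 to -0.14 with each library left out. The general chaperones Unc45a (-0.14) and Hsp90aa1 (0.30), Hspb7 (0.42) and Cavin4 (0.43) had overlapping groups too.

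**Figure D3:**
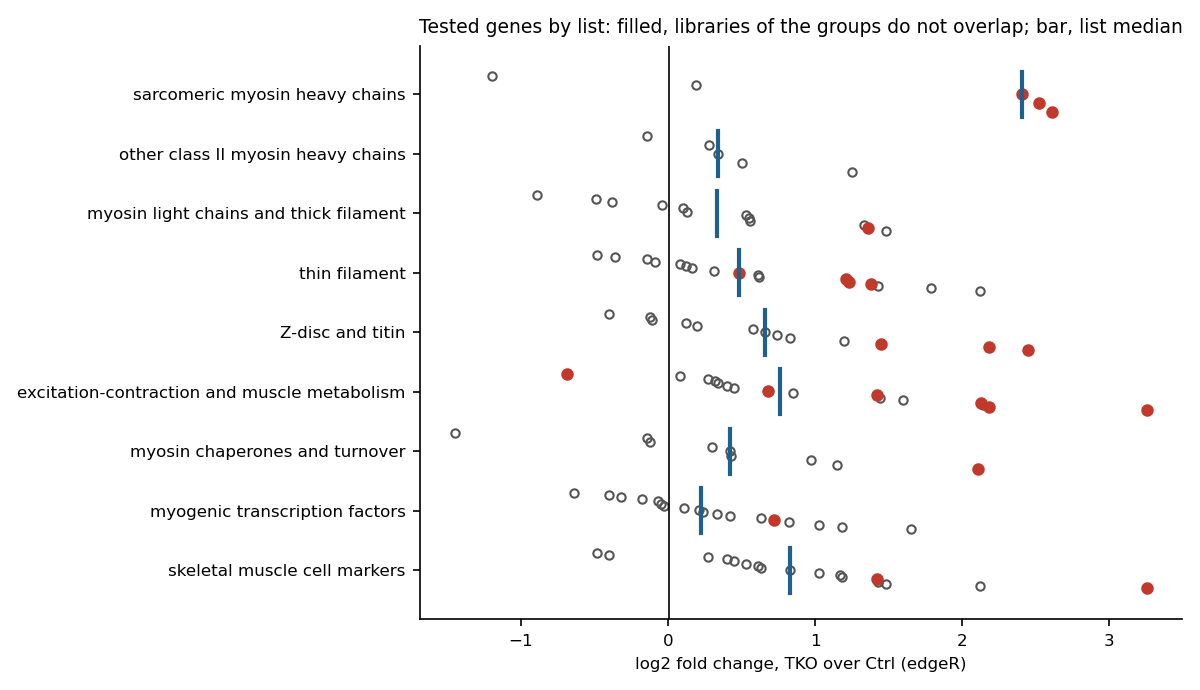
Log2 fold change of TKO over Ctrl (edgeR) for every tested gene, by list. Filled red points are genes whose Ctrl and TKO libraries did not overlap, open points are the others, blue bars are list medians and the black line is the median of all tested genes (0.01), and the sarcomeric heavy chains have the highest median (2.41), which reflects how they were chosen.

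The regulators that open the muscle program varied between the TKO libraries. Myog, the myogenic factor of differentiation, was at 0.283, 0.813 and 0.315 CPM in Ctrl and 0.119, 1.44 and 1.66 CPM in TKO, so it was lowest of all libraries in TKO 1. Myod1 was at 0.151, 0.155 and 0.0278 CPM against 0.136, 0.353 and 0.197 CPM. Pax7, of muscle stem cells, was at 0.131, 0.170 and 0 CPM against 0.00850, 0.389 and 0.0740 CPM. Myf5 was at 0 in 3 of the 6 libraries, and Myf6 was at 0 in 4 and at or under the floor in the others. Of 18 tested myogenic transcription factors 0 were called by edgeR or by DESeq2, 1 had an unadjusted p below 0.05 in edgeR, and the median log2 fold change was 0.22. Over all tested genes these shares were 0.131%, 0.936% and, for higher genes, 4.06%, so the counts are near the background. The gene was Tead1, a TEAD factor also abundant in other cells, at 133, 118 and 175 CPM in Ctrl and 242, 252 and 209 CPM in TKO (log2 fold change 0.72 ± 0.168, SE). Mef2a, the most abundant per kb of the list, had a log2 fold change of -0.18.

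The 3 TKO libraries differed in how many muscle genes lay above Ctrl, while Myh3 and Myh8 were above Ctrl in all of them. Of the 67 tested sarcomere partners, 22 were above all 3 Ctrl libraries in TKO 1, 42 in TKO 2 and 34 in TKO 3 (25%, 26.9% and 29.2% of all tested genes were). Of the 17 tested skeletal muscle markers, 3 were above all Ctrl libraries in TKO 1, 14 in TKO 2 and 12 in TKO 3, and of the 18 myogenic factors 1, 10 and 8. Markers of other cells were split among the TKO libraries too, with 0, 5 and 4 of 5 endothelial, 1, 5 and 4 of 7 melanocyte and Schwann, 1, 4 and 1 of 4 immune, 1, 0 and 5 of 6 erythroid, 0, 0 and 4 of 6 smooth muscle and pericyte, 0, 0 and 1 of 9 fibroblast and 1, 2 and 4 of 9 basal keratinocyte markers above all Ctrl libraries in TKO 1, 2 and 3. In TKO 1, Myh3 was 3.87 CPM, Myh8 1.17 CPM and Ttn 26.1 CPM, the last 2 being the highest of all libraries, and Actn2, Neb, Tpm1, Myl4, Tnni1, Mb, Atp2a1 and Cacna1s were above all Ctrl libraries as well. The fast chains Myh1 (0.0340 CPM) and Myh13 (0 CPM) were lower in TKO 1 than in any other library. Its Acta1 (0.960 CPM), Actc1 (1.90 CPM), Mylpf (1.14 CPM) and Des (0.493 CPM, against 0.454, 0.774 and 0.761 CPM in Ctrl) lay within the range of the Ctrl libraries, and so did its Ckm, the muscle creatine kinase (0.323 CPM, against 0.293, 0.325 and 0.408 CPM in Ctrl). TKO 3 had the highest Ckm (0.789 CPM), Mylpf and Des (1.86 CPM). These single genes, those on the Ctrl side included, were set side by side after their values were seen.

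**Figure D4:**
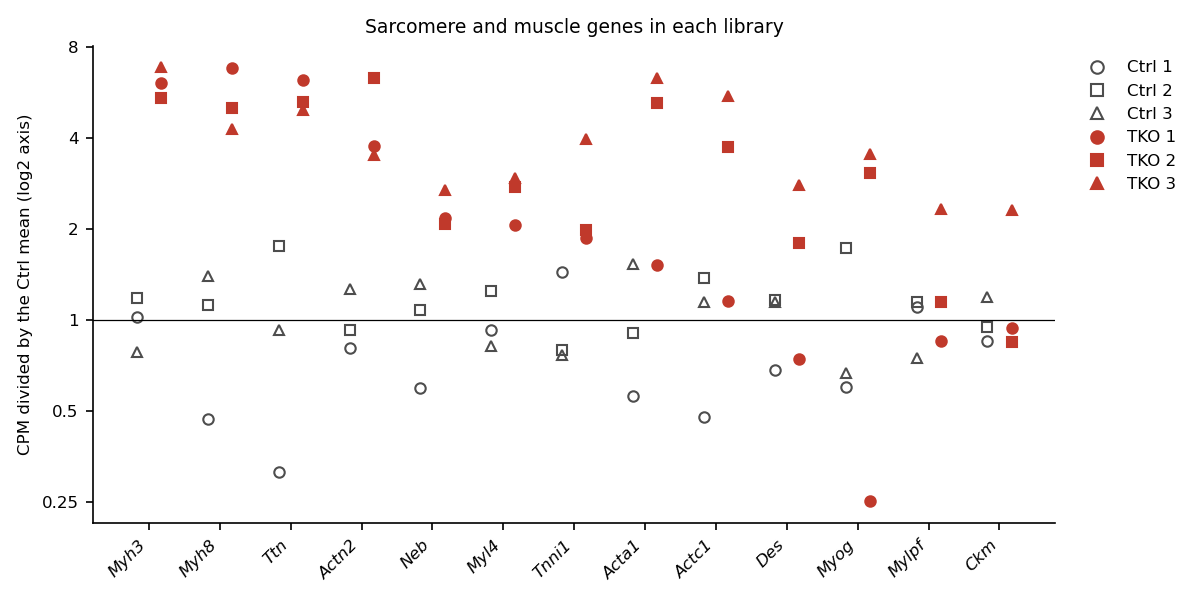
CPM of 13 genes in each library divided by the mean of the 3 Ctrl libraries (log2 axis), with Ctrl libraries as open grey and TKO libraries as filled red symbols. For Myh3, Myh8, Ttn, Actn2, Neb and Myl4 all 3 TKO libraries lie above all Ctrl libraries, whereas for Acta1, Actc1, Des, Myog, Mylpf and Ckm TKO 1 (red circle) lies within or below the Ctrl range.

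Epcam+ α6+ cells of skin lie above dermis and muscle, so markers of other cells in the sort were measured beside the heavy chains. In bulk RNA, more cells of a type and more RNA per cell cannot be told apart. The 18 skeletal muscle markers summed to 14.8, 13.2 and 13.0 CPM in Ctrl and 14.4, 23.7 and 24.5 CPM in TKO. The sum in TKO 1 lay within the Ctrl range. Ryr1 made up 40.8% of this sum and had overlapping groups, and Mylpf was the most abundant per kb. Of 17 tested, 15 had a positive log2 fold change, 2 were higher without overlap (Cacna1s, which passed the filter only through TKO, and Atp2a1), 0 were called by edgeR, 3 were higher at an unadjusted p below 0.05 and DESeq2 called 1 higher. Over all tested genes these shares were, in the same order, 51.9%, 6.35%, 0.131%, 4.06% and 0.936%. All 18 had counts in at least 1 library, with Myf6 at or under the floor in all 6 and Myf5 at 0 in 3. What part muscle cells in the sort had in the level of Myh3 was not tested.

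Markers of the sorted cells themselves were abundant in every library. Basal keratinocyte markers summed to 24500, 24300 and 18300 CPM in Ctrl and 15200, 17000 and 19400 CPM in TKO, with Krt5, the basal keratin, as the most abundant, and 0 of 9 called by edgeR. Krt15 was lower in every TKO library (2720, 2580 and 2090 against 901, 792 and 1570 CPM), and it was the 1 gene of this list that DESeq2 called lower (0.102% of all tested genes were). Itgb4, an integrin chain of hemidesmosomes, was by a small margin higher in every TKO library (464, 428 and 479 against 479, 620 and 516 CPM, log2 fold change 0.24 ± 0.149, SE). Over all tested genes 6.35% were higher without overlap and 5.11% lower, so 1 of 9 each way is near that background. Fibroblast markers summed to 1750, 4360 and 3610 CPM against 2860, 2960 and 3310 CPM, and Col1a1, their most abundant gene, had a log2 fold change of 0.03. Smooth muscle and pericyte markers summed to 78.6 ± 14.6 CPM (Ctrl) and 85.4 ± 24.2 CPM (TKO), immune markers to 23.6 ± 14.5 and 30.6 ± 34.1, melanocyte and Schwann markers to 13.4 ± 4.43 and 17.1 ± 2.33, and erythroid markers to 55.5 ± 30.9 and 95.5 ± 40.4 (SD, n = 3 each). The most abundant genes of these lists per kb had overlapping groups. Their log2 fold changes were 0.21 for Cspg4, 0.64 ± 1.34 (SE) for Lyz2, 0.33 for Pmel and 0.62 for Hba-a1. The sign of Lyz2 depended on single libraries, from -1.52 to 1.71 with each library left out. Cd74 of the immune list was apart (1.55, 1.59 and 1.32 against 1.78, 2.25 and 3.08 CPM). It was 1 of 4 tested genes of that list, where 6.35% of all tested genes were higher without overlap. Endothelial markers summed to 26.0, 26.0 and 36.0 CPM in Ctrl and 24.4, 62.4 and 50.6 CPM in TKO, so that they were higher in TKO 2 and TKO 3 and not in TKO 1, as the muscle markers were. Cdh5, their most abundant gene per kb, had a log2 fold change of 0.91 with overlapping groups. No gene of these lists was called by edgeR (0.131% of all tested genes were, so a call in lists this short would be rare), and the sums of all 8 marker lists overlapped between groups. Their part in the level of Myh3 was not tested.

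Genes next to the heavy chains were compared by position. In the chromosome 11 cluster and within 500 kb of it, 7 other genes were tested, 0 were called and 0 had groups apart, where 0.131% and 11.5% of all tested genes did, and the median log2 fold change was -0.00. A count of 0 among 7 is near that background. Sco1, a copper chaperone of mitochondria that ends 8.75 kb from Myh3, was at 20.7 CPM in both groups (log2 fold change -0.00 ± 0.154, SE). The other 6 were Adprm (-0.09), Tmem220 (-0.56), Pirt (0.62), Myhas (-0.09), Gas7 (0.14) and Usp43 (0.24). The signs of Adprm, Pirt, Myhas and Gas7 depended on single libraries, with Pirt from -0.58 to 1.05 when each was left out. Around Myh6 and Myh7, over the same distance, 30 other genes were tested, 0 were called and 5 had groups apart, namely Haus4 (0.23), Rem2 (-0.93), Ppp1r3e (-0.72), Efs (-0.25) and Thtpa (-0.31). Over all tested genes 11.5% had groups apart, so 5 of 30 is near that background too. The median of the 30 log2 fold changes was -0.04.

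The genes whose levels followed Myh3 most closely over the 6 libraries were not in any of the muscle lists. By Pearson correlation of log2 CPM among 15735 genes with a mean of at least 0.5 CPM, the 10 nearest were Rps3a3 (r = 0.992), Gm47761 (0.990), Gm11331 (0.989), Rps3a2 (0.984), Col28a1 (0.983), Gm16364 (0.982), Gm36551 (0.977), Nat8f2 (0.975), Plb1 (0.972) and Gm42752 (0.972). Rps3a3 and Rps3a2 are pseudogenes of a ribosomal protein, Gm11331 is a further pseudogene, Col28a1 encodes a collagen and Plb1 a phospholipase. Each was higher in all 3 TKO libraries, as with Rps3a3 at 0.485, 0.534 and 0.297 CPM in Ctrl and 98.6, 110 and 83.8 CPM in TKO. Of the sarcomere genes, Actn2 ranked 106 (r = 0.912), Myh8 120 (0.901), Ttn 160 (0.887), Tnni1 239 (0.857), Neb 267 (0.847), Atp2a1 370 (0.817), Mb 497 (0.790) and Acta1 628 (0.762). At the other end were Eno3 (r = -0.802, rank 15366), Myl7 (-0.687, rank 14793) and Pdlim5 (-0.622, rank 14408). With 3 libraries in each of 2 groups, such values mostly express the difference between groups and are a description.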

How the data were processed

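Libraries of rRNA-depleted total RNA were sequenced paired-end. After trimming with fastp and alignment with STAR, the authors deposited unnormalized raw counts per gene (55536 Ensembl identifiers). The GRCm39 build is named in the methods and GRCm38 in the submitters' processing notes, and the counting program, its annotation and its use of strand are not given in the sources used here. Symbols and positions came from GENCODE vM39 (51477 genes matched, with 86.4% to 94.1% of the counts of each library).

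The test was run with edgeR 4.0.16 under R 4.3.3 (filterByExpr at 10 counts and 15 in total, TMM, robust glmQLFit and glmQLFTest, two-sided). Groups followed the sample labels, all 6 libraries entered 1 fit without covariates, and the 20622 tested genes were adjusted together by Benjamini-Hochberg. Genes with an adjusted p under 0.05 and an absolute log2 fold change over 1 were called. The SE of a log2 fold change was its absolute value divided by the t value that matches its two-sided edgeR p-value. CPM used TMM-scaled library sizes, and levels per kb used the union of exons. Alternatives were DESeq2 1.42.0, RLE size factors, 2 other filters on low counts, a replicate block, sex as a covariate, no robust estimation and each library left out in turn. The fit was tested on simulated data, but the outcome is not given here and nothing above relies on it.

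Named were all 8 members, the tested genes of the other class II and chaperone lists, and from each other list the called genes, the 4 largest changes without overlap and the most abundant gene per kb. Muscle-defining factors, tested neighbours within 500 kb (for chromosome 14 those with groups apart) and the 10 genes most like Myh3 were added. Other genes are said to be named after their values were seen. The members, lists and rules were chosen with earlier results of these data known. Coding sequences were aligned with mafft 7.526, in place of proteins, which were not used here. Other data types of the study were not analysed here.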

Additional observations from a re-analysis of the deposited data

How the results depend on the processing

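Myh3 kept its direction in all alternatives (log2 fold change 2.46 to 2.75 with each library left out), but its edgeR call was lost, by adjusted p, with sex as a covariate (0.0533) and without Ctrl 1 (0.115), Ctrl 2 (0.0785), Ctrl 3 (0.122), TKO 1 (0.0595) or TKO 2 (0.0614), and kept without TKO 3. Myh8 was called by DESeq2 (log2 fold change 2.41, adjusted p = 0.00793) and in edgeR with no low-count filter (2.38, adjusted p = 0.0381). Because the same contrast chose the family, and Myh8 passed the main filter only through TKO, these p-values describe the settings and support no result. Myh1 (0.19) reversed without Ctrl 1 (-0.28) and without TKO 3 (-0.43), and ranged from -0.43 to 0.75 over the libraries left out. Genes called higher numbered 27, against 193 with DESeq2, 213 with no low-count filter, 9 with at least 10 counts in every library and 7 to 65 with each library left out (8 without Ctrl 1, 7 without Ctrl 2, 8 without Ctrl 3, 15 without TKO 2 and 65 without TKO 3). Genes called lower numbered 0 (416 at an unadjusted p below 0.05), against 21 with DESeq2, 22 with no low-count filter and 0 to 16 with each library left out (16 without TKO 3). Sarcomere partners called higher numbered 0, against 5 with DESeq2 and 5 with no low-count filter, and their median log2 fold change stayed between 0.32 and 0.66. The difference in developmental share, 29.3 percentage points, was 40.8 with Myh3 left out. The causes of these differences were not tested. The labels number the replicates alike in both groups without saying that numbers pair embryos. Deviations of same-numbered libraries correlated at 0.168, 0.0873 and 0.127 and others at -0.161 to 0.0398, so every library correlated best with its own number, as a hint from the data. With the replicate block, 44 genes were called higher and 1 lower. Most members lie near the 3-count floor.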
